A study of Mus musculus with 6 samples.

Results

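The transcripts followed here are those of 9 genes that specify the B lineage or build the pre-B cell receptor: Ebf1, Pax5, Cd79a, Cd79b, Vpreb1, Vpreb3, Igll1, Blnk and Pou2af1. They were chosen by symbol from the 23420 genes of the count tables. All 9 were present, and all 9 were among the 12653 genes that passed the filter on low counts. Pax5 and Pou2af1 passed it through 4 libraries, those of the 3 wild-type mice and of mutant mouse 1, and had at most 5 counts in the others.

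Ebf1 and Pax5 are the transcription factors that specify B cells and commit them to the lineage. The pre-B cell receptor, which tests the newly made immunoglobulin heavy chain, pairs that chain with a surrogate light chain. Vpreb1 and Igll1 encode parts of the surrogate light chain, and Vpreb3 encodes a relative of Vpreb1 that binds immunoglobulin chains inside the cell. Cd79a and Cd79b encode the pair of signalling chains. Blnk is the adaptor that links the activated receptor to the kinases and phospholipases below it, and Pou2af1 is a coactivator of the octamer-binding factors at B cell genes.

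RNA was sequenced from LSK cells of mouse bone marrow, a fraction without lineage markers but with Sca-1 and c-Kit on its surface, in which stem and early progenitor cells are found. Of 6 mice with 1 library each, 3 were bcat(ex3)osb mice (mutant mice below), whose osteoblasts carried constitutively active β-catenin signalling, and 3 were WT littermates. The active β-catenin was in the bone-forming cells of the niche, per the series' design text, so the genotypes were compared in blood progenitors outside the targeted cell type. For the driver of the allele, the age of the mice and the antibodies of the sort, nothing is given in the sources used here. Values of the 3 mice of a genotype are listed below in the order of their numbers.

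Total counts lay between 15431235 and 19956774 per library, and a gene with 0 counts was bounded by a floor of 3 counts. The library of mutant mouse 2 stood apart on the leading principal axis (50.8% of the variance). Y-linked genes had 3715 and 2841 counts in mutant mice 1 and 2 and between 8 and 13 in the other 4 libraries, so 2 mutants and no WT mouse were above 99, the most taken here as absent. Markers of the sorted fraction were present in every library: Kit had between 4966 and 20653 counts and Ly6a, which encodes Sca-1, between 1022 and 3209. Ly6a was lower in the mutants without overlap, at 65.9 to 81.5 CPM (defined below) against 148 to 162, and its part in the results was not tested. The T cell receptor chain gene Cd3e had at most 12 counts in a library.

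In WT mice the 9 transcripts were present at very different levels per length. In FPKM, which is scaled by gene length, Igll1 was highest at 233 ± 66.7 (SD, n = 3). Vpreb1 at 138 ± 50.1, Vpreb3 at 135 ± 50.9, Cd79a at 118 ± 33.9 and Cd79b at 112 ± 17.0 FPKM followed, and these 4 neighbours did not differ beyond their spread. Blnk was at 48.9 ± 17.8 FPKM. The factors were lower, with Ebf1 at 19.7 ± 6.32 and Pou2af1 at 18.5 ± 6.56 FPKM, again within their spread, and Pax5 was lowest at 1.64 ± 1.27 FPKM. Receptor parts were thus more abundant per length than the factors in these libraries.

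In mutant mice 2 and 3, 8 of the 9 transcripts were close to 0, while mutant mouse 1 lay within or just under the WT range and Cd79b stayed high in all 6 libraries. Summed over the 8 genes other than Cd79b, the level was 496, 9.29 and 12.2 CPM in the mutants against 469, 810 and 897 CPM in WT. CPM here stands for counts scaled to library totals that TMM adjusted. In bulk RNA, fewer cells of a type and less RNA per cell cannot be told apart.

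**Figure D1:**
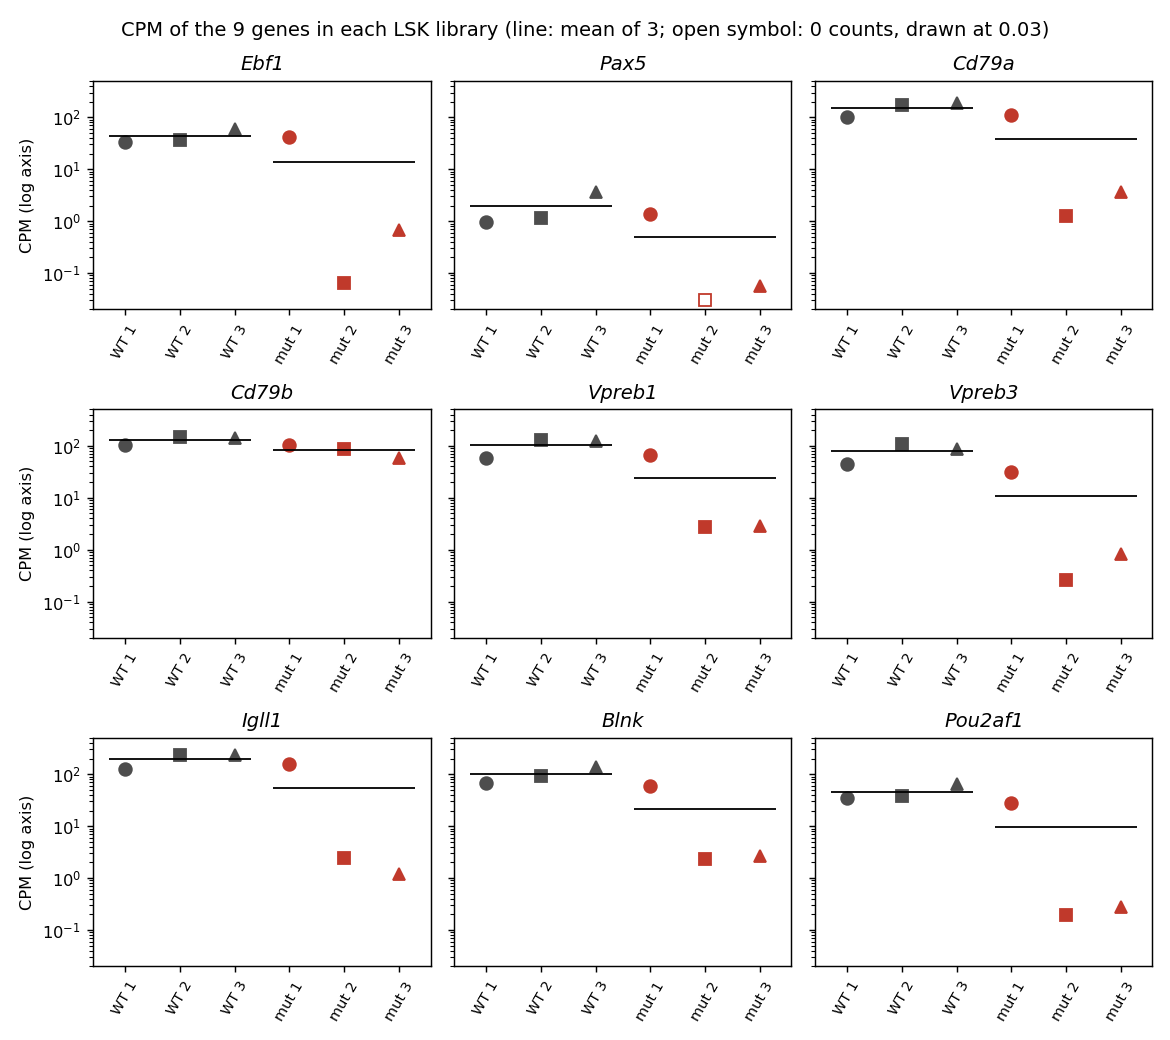
CPM of each gene (log axis) in the 3 WT (grey) and 3 mutant (red) libraries, with the mean of each group as a line and a count of 0 as an open symbol. Mutant mice 2 and 3 sit far below the other 4 libraries in every panel except Cd79b, and the mutant mean falls between the 2 levels, where no mouse lies.

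Of the lineage factors, Ebf1, which lies on chromosome 11 from 44618100 to 45008096, had CPM of 40.9, 0.0645 and 0.665 in the mutants against 33.9, 36.6 and 58.9 in WT. Mutant mouse 2 had 1 read and mutant mouse 3 had 12, against 563 to 1211 in WT mice. The single read of mutant mouse 2 was 0.15% of the WT mean, with a 95% Poisson interval of 0.00379% to 0.833% that covers counting error only. Mutant mouse 1, with 760 reads, was inside the WT range, so the groups overlapped.

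Pax5, which Ebf1 activates and which holds cells in the B lineage, had few reads everywhere (chromosome 4, 44524748 to 44710694). The mutants had 26, 0 and 1 counts and the WT mice 20, 18 and 75. Against the WT mean, mutant mouse 2 was at least 9.97-fold lower, from the floor of 3 counts in its library, and the 1 read of mutant mouse 3 was 2.87% (0.0727% to 16.0%). A transcript on the opposite strand of Pax5, 5730488B01Rik, had 230, 0 and 0 counts in the mutant and 43, 72 and 107 in the WT libraries. Because the strand setting of the counting is not given, reads of the 2 genes cannot be told apart.

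Pou2af1 (chromosome 9, 51213690 to 51240079) had CPM of 28.5, 0.194 and 0.277 in the mutants against 35.5, 38.2 and 65.0 in WT. All 3 mutant values lay below all 3 WT values, with mutant mouse 1 the nearest.

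Igll1 and Vpreb1, which encode parts of the surrogate light chain, were near 0 in mutant mice 2 and 3. Igll1, which encodes its constant-like part λ5 (chromosome 16, 16860671 to 16863985), had CPM of 160, 2.45 and 1.22 in the mutants against 128, 233 and 232 in WT. Vpreb1, which encodes its variable-like part, lies 4415 bases away on the same chromosome (16868401 to 16869255) and had CPM of 65.6, 2.77 and 2.83 in the mutants against 58.4, 129 and 124 in WT. Mutant mouse 1 exceeded WT mouse 1 in both genes, and the other mutant mice had under 3 CPM. The ratio of Vpreb1 to Igll1 counts was 0.410 in mutant mouse 1, between 0.455 and 0.554 in WT mice, and 1.13 and 2.32 in mutant mice 2 and 3. In GENCODE M21, Vpreb1 overlaps Top3b on the opposite strand. Top3b had 2460 and 2141 counts in mutant mice 2 and 3, beside 43 and 51 for Vpreb1, and its part in those counts was not tested.

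Vpreb3 (chromosome 10, 75943024 to 75949657) had CPM of 31.0, 0.258 and 0.832 in the mutants against 44.7, 107 and 86.6 in WT. The groups did not overlap for this gene, and mutant mouse 1 was at 39.0% of the WT mean, its lowest share among the 9.

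The signalling chains separated from each other. Cd79a (chromosome 7, 24897497 to 24901858) had CPM of 109, 1.23 and 3.66 in the mutants against 100, 170 and 187 in WT. Cd79b (chromosome 11, 106311341 to 106314562) had CPM of 105, 87.4 and 58.8 in the mutants against 105, 146 and 142 in WT. Mutant mice 2 and 3 thus had 0.804% and 2.40% of the WT mean of Cd79a but 66.9% and 45.0% of that of Cd79b. Counts of Cd79b over Cd79a stood at 0.965, 71.3 and 16.1 in the mutants against 1.04, 0.855 and 0.760 in WT. Of the summed CPM of the 9 genes, Cd79b made up 90.4% and 82.8% in mutant mice 2 and 3 and between 13.7% and 18.2% in the other 4 libraries.

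The adaptor Blnk (chromosome 19, 40928927 to 40994221) had CPM of 60, 2.32 and 2.66 in the mutants against 66.7, 93.8 and 139 in WT. Mutant mice 2 and 3 had 36 and 48 reads of it, so that it stayed detectable where Ebf1 and Pou2af1 had 1 to 12. The groups did not overlap, with mutant mouse 1 under the lowest WT mouse.

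**Figure D2:**
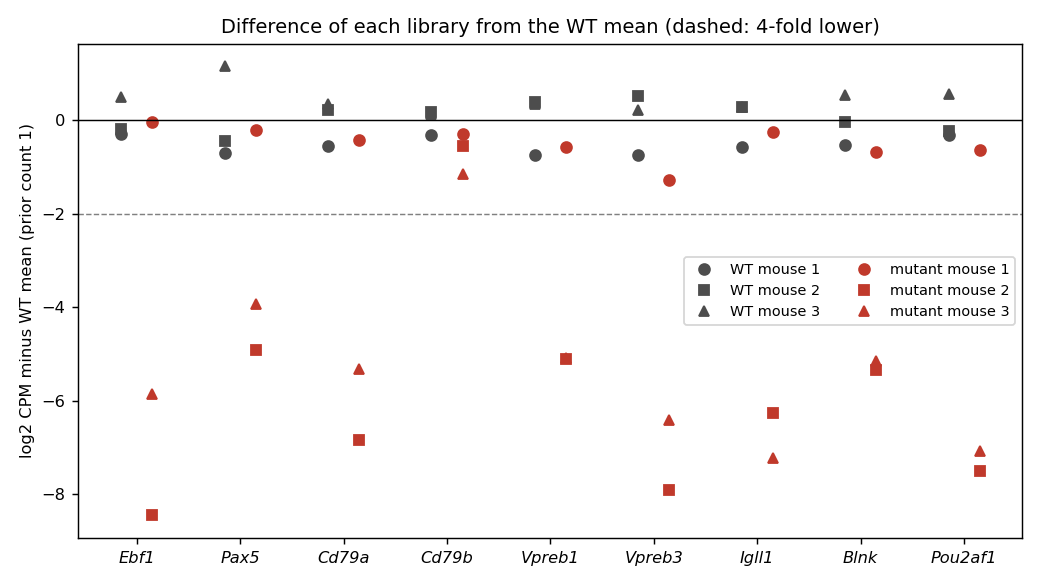
Difference of each library from the WT mean in log2 CPM (prior count 1) for the 9 genes, WT in grey and mutant in red, with the dashed line at 4-fold lower. Mutant mice 2 and 3 lie under the line for 8 genes and above it for Cd79b, and mutant mouse 1 is above it for all 9.

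Relative to the WT mean, the median of the 9 genes stood at -0.43, -6.25 and -5.31 log2 units in the mutants against -0.55, 0.17 and 0.34 in WT. Over all genes tested the median of each library lay between -0.03 and 0.02. In mutant mouse 2, 8 of 9 members were past 4-fold lower, where 6.13% of all tested genes were. The same 8 were past it in mutant mouse 3, where 1.58% of all tested genes were, and 0 were in mutant mouse 1, where 2.00% were. Past 4-fold lower in mutant mice 2 and 3 but not in mutant mouse 1 were these 8 and 0.775% of all tested genes. Mutant mouse 1 lay below all 3 WT mice for 3 members, Vpreb3, Blnk and Pou2af1 (24.0% of all tested genes), and within the WT range for 6. Mutant mouse 2 had 2841 Y-linked counts and mutant mouse 3 had 12. Counts above 99 were in mutant mice only, so sex overlapped genotype in part, and its part in the low values was not tested.

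**Figure D3:**
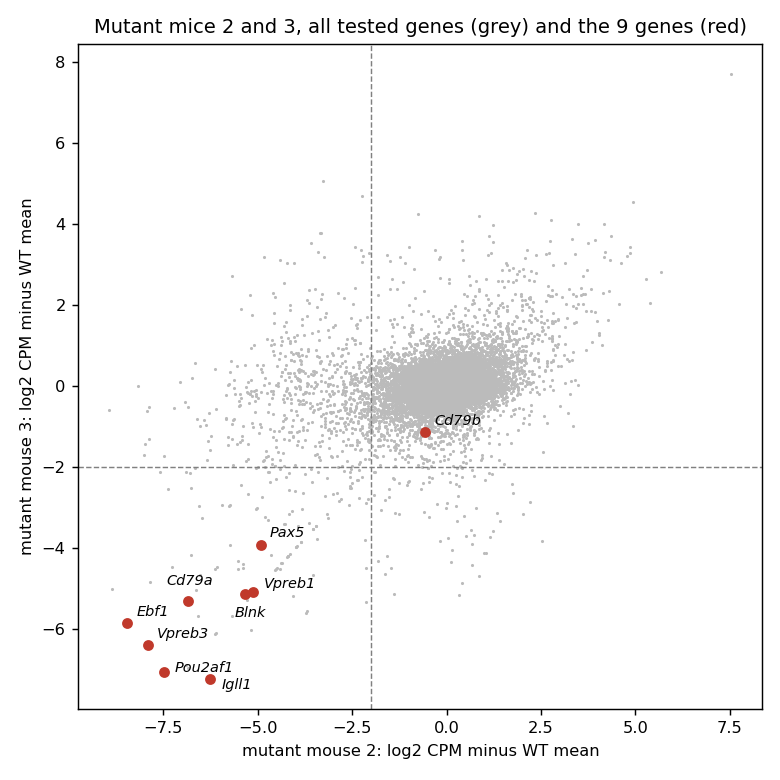
Difference from the WT mean in log2 CPM in mutant mouse 2 (x axis) and mutant mouse 3 (y axis) for every tested gene (grey) and the 9 genes (red), with dashed lines at 4-fold lower. Of the 9, 8 lie in the lower left corner, from -3.92 to -7.23 in mutant mouse 3, and Cd79b lies near the bulk.

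As a difference between genotypes, no member passed the test. Their log2 fold changes, mutant over WT, were all negative, from -2.89 ± 1.33 (SE) for Vpreb3 to -0.64 ± 0.26 for Cd79b, with a median of -2.00 beside 0.00 over all genes tested and a negative value in 49.7% of these. By edgeR's quasi-likelihood test 0 of 9 members, and 0% of all tested genes, were lower at an adjusted p under 0.05. Adjusted p ran from 0.724 for Cd79b to 0.895 for Ebf1. At an unadjusted p under 0.05 there was 1 member, Cd79b, where 3.13% of all tested genes were lower and 3.43% higher. In this fit Cd79b, with the smallest change, had the smallest SE and the smallest unadjusted p, 0.0382. The unadjusted tally depended on the tool. By limma-voom 9 of 9 members were lower at an unadjusted p under 0.05, where 4.20% of all tested genes were, with p from 0.0034 for Vpreb3 to 0.0415 for Pax5. By limma on log2 FPKM it was also 9 of 9, where 5.06% (pseudocount 1) and 4.79% (pseudocount 0.1) of all tested genes were lower. With the mouse number as a block it was 8 of 9, where 6.50% were, and by DESeq2 1 of the 6 members with a p, Cd79b, where 3.85% were. After adjustment limma-voom called 0 members and 0% of all genes in either direction, so its 0 says nothing particular to the members. DESeq2 called 0 of the 6, with 0.538% of all genes lower and 0.799% higher. For 3 members all mutant values lay below all WT values, as they did for 7.67% of all tested genes.

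Without mutant mouse 1, 7 of 9 members were lower by edgeR at an adjusted p under 0.05 (0.101% of all genes tested, 13 genes, with 0.00774% higher). Ebf1 then had a log2 fold change of -6.81 ± 0.74 with an adjusted p of 0.0428, Igll1 of -6.76 ± 0.53 (0.0189) and Pou2af1 of -7.56 ± 0.53 (0.0189). Pax5 at -5.74 ± 1.36 (0.336) and Cd79b at -0.84 ± 0.29 (0.507) did not pass. This comparison leaves out the mouse that differed from the other mutants in these very genes, so it describes mutant mice 2 and 3 and is no independent test of genotype. Without mutant mouse 2, the library that stood apart, the median over the members was -1.43. Without mutant mouse 3, 0 members were called, where 0.0154% of all genes were lower and 0.0309% higher, and with the mouse number as a block 0 members were called, where 0.0395% were higher.

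The sequence before the start site is shown for 3 genes that were low together in mutant mice 2 and 3: a surrogate light chain gene, the relative of Vpreb1 and the coactivator. Their windows hold no exon of GENCODE M21, nor do those of Pax5 and of the second Ebf1 start, which are not printed. RefSeq start sites on GRCm38.p6 matched 8 of the 9 symbols, with 9 windows, since Ebf1 has 2. Each line is the 250 bases before the start, 5′ to 3′ on the gene's strand. Capitals mark letters of the octamer ATGCAAAT, the Ebf1 core CCCNNGGG, the E-boxes CAGGTG and CAGCTG, which E proteins bind, and the PU box GAGGAA, each searched on both strands. The windows are chr16:16863986-16864235 (minus strand) for Igll1, chr10:75948050-75948299 (plus) for Vpreb3, whose start lies within the span of the gene, and chr9:51213440-51213689 (plus) for Pou2af1, which holds no match.
Igll1: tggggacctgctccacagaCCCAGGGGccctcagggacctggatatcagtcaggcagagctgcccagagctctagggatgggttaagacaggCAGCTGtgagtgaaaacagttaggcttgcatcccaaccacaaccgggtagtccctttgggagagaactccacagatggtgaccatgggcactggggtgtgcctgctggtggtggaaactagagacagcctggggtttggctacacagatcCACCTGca
Vpreb3: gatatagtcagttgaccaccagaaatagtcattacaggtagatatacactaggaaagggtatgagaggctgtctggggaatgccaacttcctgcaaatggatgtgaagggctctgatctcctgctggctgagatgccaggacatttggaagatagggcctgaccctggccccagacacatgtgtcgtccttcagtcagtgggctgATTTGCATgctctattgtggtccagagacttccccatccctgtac
Pou2af1: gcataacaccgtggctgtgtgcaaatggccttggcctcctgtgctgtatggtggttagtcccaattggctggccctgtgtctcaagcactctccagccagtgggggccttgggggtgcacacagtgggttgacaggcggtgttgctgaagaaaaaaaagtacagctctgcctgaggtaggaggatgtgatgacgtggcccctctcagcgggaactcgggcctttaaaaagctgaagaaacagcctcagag

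The E-box CAGGTG was in 4 of the 9 windows (Cd79a, Igll1, Vpreb1 and Blnk) and in 17.2% of all 32851 windows. The octamer, whose factors Pou2af1 assists, was in 2 (Vpreb3 and Blnk) and in 1.60% of all windows. The Ebf1 core was in 1 (Igll1, 11.8% of all), CAGCTG in 1 (Igll1, 13.0%) and the PU box in 3 (Cd79a, Ebf1 and Vpreb1, 23.3%). These are matches of letters and not sites of binding.

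Vpreb2, a near-copy of Vpreb1 on chromosome 16 (17979445 to 17981274) and no member of the 9, went apart from it in mutant mouse 1. It had CPM of 24.6, 0.0645 and 0.166 in the mutants against 6.89, 14 and 15 in WT. Mutant mouse 1 had 206% of the WT mean of Vpreb2 (187% to 226%, counting error only) and 63.2% of that of Vpreb1 (59.7% to 66.8%). The windows of the 2 genes share an identical stretch of 91 bases, which begins 94 bases before the Vpreb1 start and holds the E-box CAGGTG. Of the 50-base words of the longest Vpreb1 transcript, 31.2% were also in Vpreb2, and since nothing states how reads with several matches were counted, the split of reads between them is uncertain.

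Other genes of the B lineage programme were read from lists. Among early lymphoid genes 0 of 11 passed the test in either direction, with 7 negative and a median log2 fold change of -0.23. Their list median was 0.37, -2.37 and -1.32 log2 units in mutant mice 1, 2 and 3 and between -0.22 and 0.29 in WT mice. Rag1, which cuts receptor genes for recombination, had CPM of 28.2, 0.129 and 0.610 in the mutants against 11.0, 19.7 and 22.2 in WT. Dntt, which adds bases at the joins, had CPM of 1170, 176 and 365 in the mutants against 736, 868 and 1183 in WT. The interleukin 7 receptor gene followed, with Il7r at 44.0, 4.64 and 7.98 CPM in the mutants against 23.2, 29.1 and 47.3 in WT. Mutant mice 2 and 3 were below all WT mice in these 3 genes, and mutant mouse 1 was not. Rag2 had CPM of 54.2, 3.16 and 8.43 in the mutants against 38.6 to 61.6 in WT. Ly6d had 151, 2.26 and 3.99 CPM against 26.1 to 41.2 CPM. In both, mutant mice 2 and 3 were again below all WT mice, and mutant mouse 1 was not. Flt3, a cytokine receptor, did not follow, with CPM of 1016, 847 and 1090 in the mutants against 1231, 746 and 912 in WT. Cd27, Notch1, Satb1 and Sox4 also stayed near the WT mean in mutant mice 2 and 3. Their log2 differences there were -0.27 and -0.32, -0.57 and 0.03, -0.44 and -0.09, and -0.16 and -0.07. The chemokine receptor Ccr9 was lower in all 3 mutants, at 6.41, 0.258 and 7.93 CPM against 17.4 to 29.3.

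Of the factors that act before or beside Ebf1 and Pax5, 0 of 14 tested passed, 8 were negative and the median was -0.16. The list median of the 14 was 0.18, -0.40 and -0.41 log2 units in the mutants. Past 4-fold lower in both mutant mice 2 and 3 were 4 of the 14, Id3, Lef1, Spib and Irf4, and 0.988% of all tested genes. Lef1 had CPM of 20.7, 0.194 and 1.94 in the mutants against 33.4 to 86.6 in WT. Spib had 2.53, 0 and 0.333 CPM against 5.33 to 11, and Irf4 had 7.38, 0 and 0.111 CPM against 2.15 to 5.38. Tcf3, which encodes the E protein E2A, was at 398 ± 30.5 (mutant) against 385 ± 67.3 CPM (WT; SD, n = 3), and Ikzf1, which encodes Ikaros, at 180 ± 40.7 and 176 ± 21.7 CPM. Foxo1, which works with Ebf1 in early B cells, had CPM of 55.3, 29.5 and 29.8 in the mutants against 51.4, 59.2 and 72.8 in WT. The inhibitors of E proteins differed in opposite directions without overlap: Id2 had CPM of 54.1, 60.3 and 106 in the mutants against 14.9 to 20.7 in WT, and Id3 of 5.49, 1.16 and 2.16 against 19.0 to 29.7. Their log2 fold changes were 2.04 ± 0.31 and -3.01 ± 0.56 (SE), with adjusted p of 0.292 and 0.314 by edgeR. DESeq2 called both, Id2 at an adjusted p of 2.01e-06 and Id3 at 1.73e-05, and 0 of the other 12 factors.

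Of the kinases and adaptors below the receptor, 0 of 27 tested genes passed, 17 were negative and the median was -0.15. Their list median was 0.07, -0.63 and 0.05 log2 units in the mutants. Syk, the kinase that binds the phosphorylated chains, was at 193 ± 28.6 (mutant) against 213 ± 62.5 CPM (WT; SD, n = 3), Btk at 115 ± 32.8 and 143 ± 24.6 CPM, and Lyn at 125 ± 21.3 and 105 ± 12.6 CPM. The B cell kinase Blk was near 0 in mutant mice 2 and 3, at 13.4, 0 and 1.44 CPM in the mutants against 4.94 to 8.27 in WT.

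Surface and late B genes were mixed. Of 17 tested, 0 passed, 12 were negative, and the median was -0.36. Cd72, an inhibitory receptor of B cells, had CPM of 47.7, 22.5 and 36.9 in the mutants against 60.8 to 64.8 in WT. Cd40 went the other way without overlap, at 1.29, 0.645 and 2.05 CPM against 0.194 to 0.438, on at most 37 counts in a library. Of 5 plasma cell markers tested, 0 passed, 4 were negative, 1 was positive and the median was -0.82. Sdc1, a proteoglycan also carried by pro-B and pre-B cells, was at 18.8, 4.06 and 4.88 CPM against 42.1 to 65.7 CPM and was called lower by DESeq2 (adjusted p = 0.00164). Xbp1, a factor of secretory cells, was the positive gene, at 279, 178 and 217 CPM against 147 to 181 CPM.

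**Figure D4:**
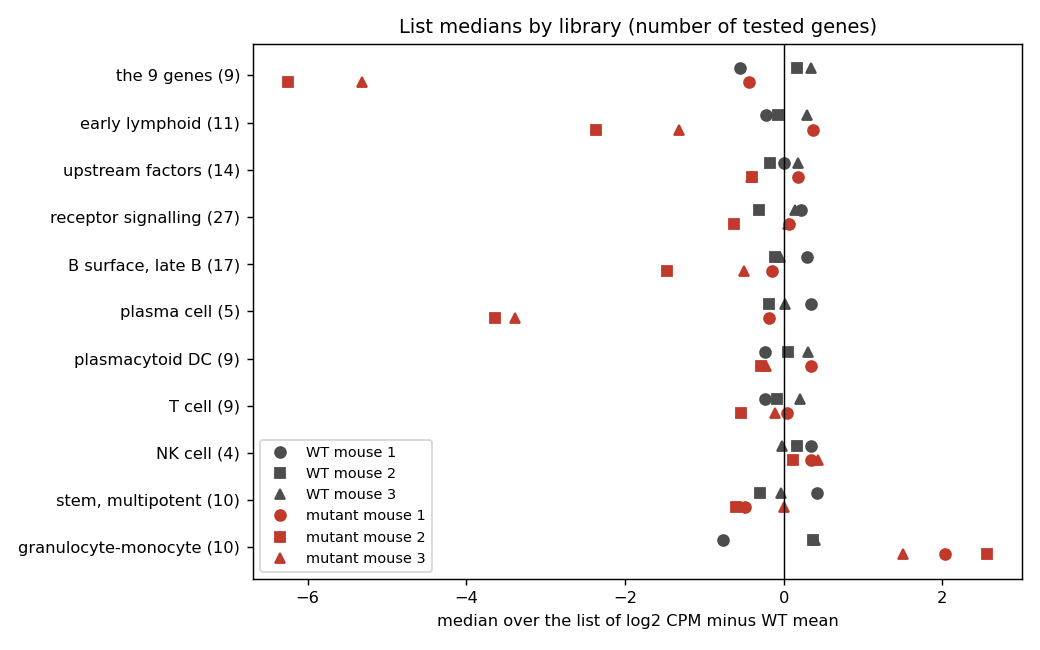
Median over each list of the difference from the WT mean in log2 CPM, 1 symbol per library, with the number of tested genes beside each list. Mutant mice 2 and 3 stand furthest left for the 9 genes, at -6.25 and -5.31, and all 3 mutant mice stand right of the WT mice for the granulocyte-monocyte list.

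Markers of other cells were summed per library, and their part in the result was not tested. Markers of plasmacytoid dendritic cells had 3 of 9 tested genes negative and a median of 0.38. Their summed levels were 1143, 574 and 626 CPM in the mutants against 478, 672 and 657 in WT. Only mutant mouse 1 was thus above the WT range, and 536 CPM of its sum was Irf8, also on the granulocyte-monocyte list. T cell markers summed to 138 to 203 CPM in the mutants against 194 to 230 in WT, with 7 of 9 negative. Cd3e and Cd3d were at 0 counts in mutant mice 1 and 2, while mutant mouse 3 had 12 and 9 counts of them and 49 of Cd8a, each the highest of the 6 libraries. NK cell markers had 1 of 4 negative, with Ncr1 and Gzma at 0 in all 3 mutant libraries and at most 14 counts in a WT library. Gzmb went the other way, with 1, 27 and 60 counts in the mutants against 1, 0 and 11 in WT. Stem and multipotent markers summed to 3187 to 3907 CPM in the mutants against 3184 to 4831 in WT. Granulocyte-monocyte genes were positive for 10 of 10, where 49.7% of all tested genes were negative. Called higher were 0 of them by edgeR (0% of all tested genes) and 8 by DESeq2 (0.799%). Their sums were 6656 to 11723 CPM in the mutants against 1409 to 3397 CPM in WT. In mutant mouse 1 this sum was 8823 CPM beside 602 CPM for the 9 B lineage genes, so that mouse was above the WT range in the first sum and inside it in the second.

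Mutant mouse 1 lay inside the WT range for 6 of the 9 genes, and some other genes of the programme lay outside it on either side. Rag1 (28.2 CPM), Vpreb2 (24.6), Blk (13.4), Ly6d (151) and Irf4 (7.38) lay above all 3 WT mice, and Spib (2.53), Lef1 (20.7) and Vpreb3 lay below all 3. In WT mice Ly6d, a surface marker of B-biased lymphoid progenitors, was at 26.1 to 41.2 CPM, and Lef1, a transcription factor of pro-B cells, at 33.4 to 86.6 CPM. The ratio of Rag1 to Ebf1 counts was 0.688 in mutant mouse 1 and between 0.325 and 0.538 in WT mice. Ly6d, Irf4 and Lef1 were chosen after their values were seen, and with 1 mouse there is no test.

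**Figure D5:**
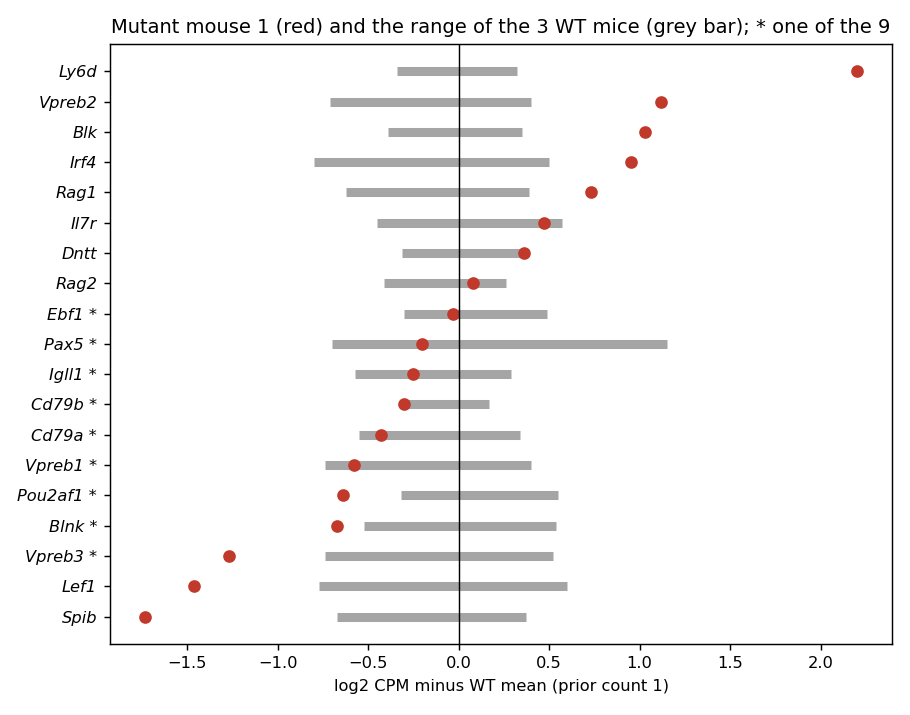
Difference from the WT mean in log2 CPM in mutant mouse 1 (red) and the range of the 3 WT mice (grey bars) for the 9 genes (starred) and 10 other B lineage genes. Of the starred genes 6 lie inside the bar, and Ly6d (2.20) and Spib (-1.73) mark the ends of the order.

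Other genes, without sex-linked genes and those known only by a clone or model number, were ranked by how closely their log2 CPM followed the mean profile of the 9 over the 6 libraries. This is a description, since the libraries fall into 2 levels and share their depth. Of 11814 genes ranked, Arhgap10 (Pearson r = 0.996), Prob1 (0.996), Sit1 (0.995), Rnf13 (0.990), Rnase12 (0.988), Agpat9 (0.988), Ccng2 (0.988), Slamf6 (0.986), Xrcc6 (0.985) and Arl5c (0.985) came first. Sit1, an adaptor of lymphocyte receptors, had CPM of 1.13, 0 and 0 in the mutants against 1.41 to 3.06 in WT. Slamf6, a receptor of lymphocytes, was at 17.8, 4.58 and 4.77 CPM against 18.1 to 33.7 CPM. Xrcc6, which encodes the Ku70 protein of DNA end joining, was far less apart, at 259, 173 and 173 CPM against 238 to 283 CPM. Among the 9, Cd79b had the lowest value, 0.842, and the other 8 had 0.980 to 0.998. Each of the 9 is part of the mean profile, so these values are high in part by construction.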

How the data were processed

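The kit was TruSeq Stranded Total RNA, per the labels' protocols, with 3 libraries per genotype. The submitters' processing notes name the build mm10 and the tools featureCounts 1.5.0-p3, STAR 2.5.2b and bcl2fastq 2.17. The authors deposited raw counts per gene and, in a second file per library, the counts with gene length and FPKM, which matched counts divided by length and library total to within 0.005. Strand setting, annotation and treatment of reads with several matches: not given here.

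Raw counts were tested in R 4.3.3 with edgeR 4.0.16. Genes were kept by filterByExpr (at least 10 counts, at least 15 in total), libraries were scaled by TMM, and genotype was the sole term of a quasi-likelihood model. P-values were adjusted by Benjamini-Hochberg over 12653 genes, with a threshold of 0.05. SE were derived from the F statistic. Log2 CPM per library used a prior count of 1. Counting intervals are 95% exact Poisson intervals, and they and the floor of 3 counts cover counting error only, since PCR copies of a molecule were not marked by identifiers and are counted as reads. The fit was tested on simulated data. With 3 mice a side, exact permutation reaches p = 0.1 at the lowest.

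The members and lists were chosen with earlier results of these data known. Named besides the 9 are genes from a fixed list, 1 of which is not reported here, up to 4 per list with the smallest unadjusted p, and the 10 closest in profile. Immunoglobulin chain genes and Spi1 are not analysed here. The alternatives were RLE scaling, DESeq2 1.42.0, limma-voom (limma 3.58.1), no filter, limma on log2 FPKM with a pseudocount of 1 or 0.1, a block for mouse number, each mouse left out and the 4 mice with at most 99 Y-linked counts. Coordinates and start sites are RefSeq's on GRCm38.p6, which mm10 also names, and overlaps are from GENCODE M21.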

Additional observations from a re-analysis of the deposited data

How the results depend on the processing

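The median log2 fold change of the 9 genes was -2.00, and under all 14 alternatives each of the 9 had a negative value (126 of 126 fits), 7 of them past the threshold, all without mutant mouse 1. Leaving out 1 mouse at a time moved the median between -5.95 (without mutant mouse 1) and -1.43 (without mutant mouse 2), members called lower between 0 and 7, and genes lower and higher over all genes between 0 and 13 and between 0 and 4, with 13 lower and 1 higher without mutant mouse 1, and 2 lower and 4 higher without mutant mouse 3. The median was -5.40 in the 4 mice with at most 99 Y-linked counts, where the mutant side is mutant mouse 3 alone and is assumed to vary like the WT mice, -4.10 by limma-voom and -3.22 and -4.23 on log2 of FPKM plus 1 and plus 0.1. DESeq2 called 68 genes lower and 101 higher, and 0 of the 6 members to which it gave a p. It gave none to Ebf1, Igll1 and Vpreb1, which were 3 of only 15 tested genes without a p by DESeq2. Same-numbered mice of the 2 genotypes correlated at 0.110, 0.344 and 0.0567 in their deviations from the group means. Mice of different numbers correlated at -0.287 to 0.279. These values do not settle whether the mice were paired. No pairing is stated, so the numbers were not taken as pairs in the main fit. With the replicate block 5 genes were higher, 0 were lower, and the median of the 9 was -4.33. Depth limits Pax5, with at most 75 counts in a library, and the residual levels in mutant mice 2 and 3, which rest on 0 to 66 reads for the genes other than Cd79b.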

Other observations

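The combination seen in 8 of the 9 genes, past 4-fold lower in mutant mice 2 and 3 but not in mutant mouse 1, was shared by 98 of 12653 tested genes (0.775%). Both this rule and the genes named below were chosen after the values were seen, so they are described without a test. Ordered by the mean of the differences in mutant mice 2 and 3, Pou2af1, Ebf1 and Vpreb3 came first. Agpat9, an acyltransferase of glycerolipid synthesis, had log2 differences of -1.45, -6.85 and -6.97 in mutant mice 1, 2 and 3. Gfra2, a receptor of the glial cell line-derived family, had log2 differences of 0.68, -6.78 and -5.36 in mutant mice 1, 2 and 3. The macrophage gene Emr1 at -0.48, -5.94 and -2.94 and the interferon-induced Gbp6 at -1.06, -7.36 and -2.55 were also among the 98, so the combination was not limited to B lineage genes. Mzb1, a chaperone gene of immunoglobulin assembly, had -0.35, -5.72 and -3.93.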
